A study of Mus musculus with 6 samples.

Results

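The 51 genes described here are nuclear-encoded subunits of the mitochondrial respiratory chain and of ATP synthase, counted in mouse embryonic fibroblasts (MEFs) that received an adenovirus carrying ORAI2 or GFP. They were chosen by name as subunits of complexes I to V plus cytochrome c, by a rule that uses no measured value. Earlier results of these data were known when the choice was made. All 51 were found by symbol among the 26532 genes of the table, and all 51 passed the filter on low counts that 13764 genes passed. Complex I gave 25 of them, complex II 4, complex III 7, cytochrome c 1, complex IV 10 and complex V 4. ORAI2 is a plasma membrane calcium channel subunit of store-operated calcium entry, and the study asked how its forced expression bears on osteogenic differentiation. There were 3 bulk mRNA libraries from cells given the GFP virus, of wild-type genotype by their labels, and 3 from cells given the ORAI2 virus, labelled as overexpressing ORAI2. Both groups share an adenovirus vector and the label of osteogenic differentiation, with the cell type given as mesenchymal stem cells. The series title names BMP9, a bone morphogenetic protein, as the inducer, but the sample labels give neither an inducer, a dose, a time nor separate cultures, so the spread that each p-value rests on is that between libraries, which may be technical.

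The respiratory chain passes electrons from NADH (at complex I) and succinate (at complex II) through ubiquinone to complex III, then by cytochrome c to complex IV, where oxygen is reduced. Complexes I, III and IV pump protons across the inner mitochondrial membrane, and complex V uses the gradient to make ATP. Complexes I, III, IV and V are built from subunits of the nuclear and the mitochondrial genome together, while complex II is entirely nuclear-encoded. No mitochondrially encoded gene matched a row of the table, so those subunits were not analysed here.

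Total counts ran from 18526884 to 18844436 per library. The overexpressed gene separated the groups: Orai2 had 994, 914 and 909 counts under GFP and 67882, 53034 and 45140 under ORAI2, a log2 fold change of 5.89 (SE 0.13, adjusted p = 7.02e-11). Fibroblast markers were present in every library, with a summed level of 8898 to 9454 CPM, the count scaled to the library size, under GFP and 7050 to 7577 under ORAI2. All 11 tested markers of that list of 12 were lower under ORAI2, while Thy1 had at most 3 counts in any library. Summed CPM under GFP and under ORAI2 were 51.6 to 55.6 and 26.5 to 36.0 for macrophage markers, and 6.74 to 9.20 and 16.7 to 18.0 for endothelial markers. They were 3.34 to 4.06 and 4.43 to 5.39 for epithelial, and 2.10 to 2.65 and 3.15 to 4.26 for striated muscle markers. They were 48.6 to 55.2 and 47.0 to 53.2 for fat, and 132 to 144 and 164 to 175 for neural markers. The macrophage, fat and neural sums came mostly from a single gene each. By mean CPM under GFP and under ORAI2 these were Cd14 (39.8 and 25.5), Fabp4 (47.9 and 41.4) and Nes (124 and 154). Of the tested markers, 2 of 3 macrophage markers were lower, 2 of 2 endothelial, 1 of 2 epithelial, 1 of 3 muscle and 1 of 2 fat markers were higher, and of 4 neural markers 1 was higher and 1 lower. Cd52, Emcn, Epcam, Ckm and Adipoq were at 0 in all 6 libraries. The part of these marker shifts in the subunit results was not tested, and in bulk RNA, fewer cells of a type and less RNA per cell cannot be told apart.

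The subunit genes changed little between the groups. Of the 51, 3 were higher under ORAI2 (Uqcrq, Cycs and Ndufa10) and 9 were lower (Ndufa6, Ndufb10, Ndufa1, Ndufb9, Uqcrc2, Ndufb5, Sdha, Ndufv2 and Cox6a1) at an adjusted p under 0.05 by edgeR's quasi-likelihood test. That is 23.5% of the subunit genes called, where 42.9% of all tested genes were called in the same comparison. In the single directions, 5.88% of the subunit genes against 20.8% of all genes were higher, and 17.6% against 22.1% were lower. The log2 fold changes of the 51 ranged from -0.27 to 0.25 with a median of -0.06, and their SD was 0.11, against a median of -0.00 and an SD of 0.44 over all tested genes. The split of called subunit genes between higher and lower moved with the scaling, from 3 and 9 to 2 and 13 with upper-quartile scaling, 5 and 9 with offsets by GC content, and 7 and 5 with offsets by transcript length. Without GFP replicate 1 the number lower was 5.

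The intervals were narrow enough to bound most of these genes. For 46 of the 51 (90.2%) the 95% interval of the fold change lay wholly within 1.25-fold in either direction, a property of 43.4% of all tested genes. The fitted change was under 1.2-fold for 50 of the 51 (98.0%), against 64.9% of all tested genes, with Ndufa6 as the exception. The 3 GFP and 3 ORAI2 values did not overlap for 17 subunit genes (33.3%), against 52.8% of all tested genes. The subunit genes had a median GFP level of 60.6 CPM, against 28.7 CPM over all tested genes, and a median coefficient of variation within groups of 4.01%, against 5.28%.

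**Figure D1:**
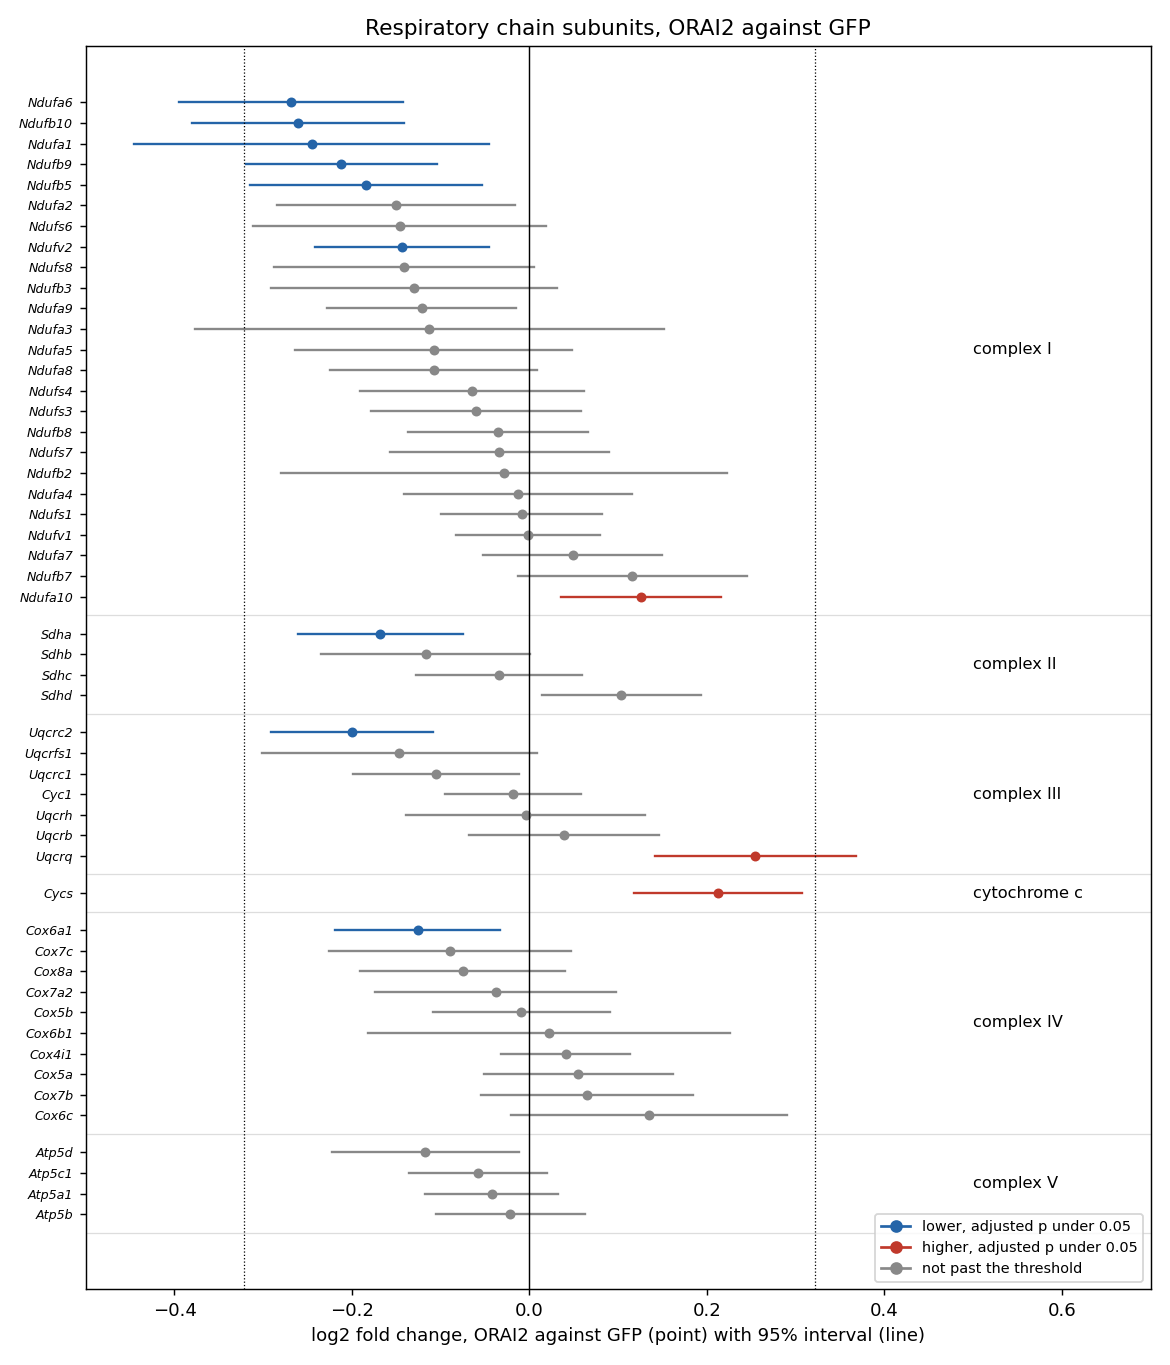
Log2 fold change (horizontal axis, ORAI2 against GFP) of each of the 51 subunit genes, in rows grouped by complex. Points are fitted values, lines are 95% intervals, colours mark genes past the threshold, and the dotted lines stand at 1.25-fold in either direction. Complex I lies mostly left of 0, complex IV lies on both sides of it, and Uqcrq and Cycs lie farthest to the right.

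Levels between genes were compared as CPM per kilobase of transcript. The length was that of the longest transcript of a gene, RefSeq-matched where possible, and the order of genes and complexes rests on it. By the median of its members in the GFP libraries, complex V was highest at 204, followed by complex IV at 93.2, complex III at 59.5, complex II at 52.8 and complex I at 38.2 CPM per kilobase, with cytochrome c at 46.5. The highest single gene was Atp5b, the catalytic beta subunit of ATP synthase, with 630, 619 and 584 CPM per kilobase under GFP and 610, 609 and 587 under ORAI2. The lowest by this measure was Ndufa3, a small accessory subunit of complex I, with 17.5, 19.7 and 14.2 CPM per kilobase under GFP and 16.8, 16.0 and 14.8 under ORAI2. Its place at the low end was not shared by the deposited length-scaled values given at the end. Within Atp5b and within Ndufa3 the groups overlapped, so the spread of levels among subunits was far wider than any change with ORAI2.

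**Figure D2:**
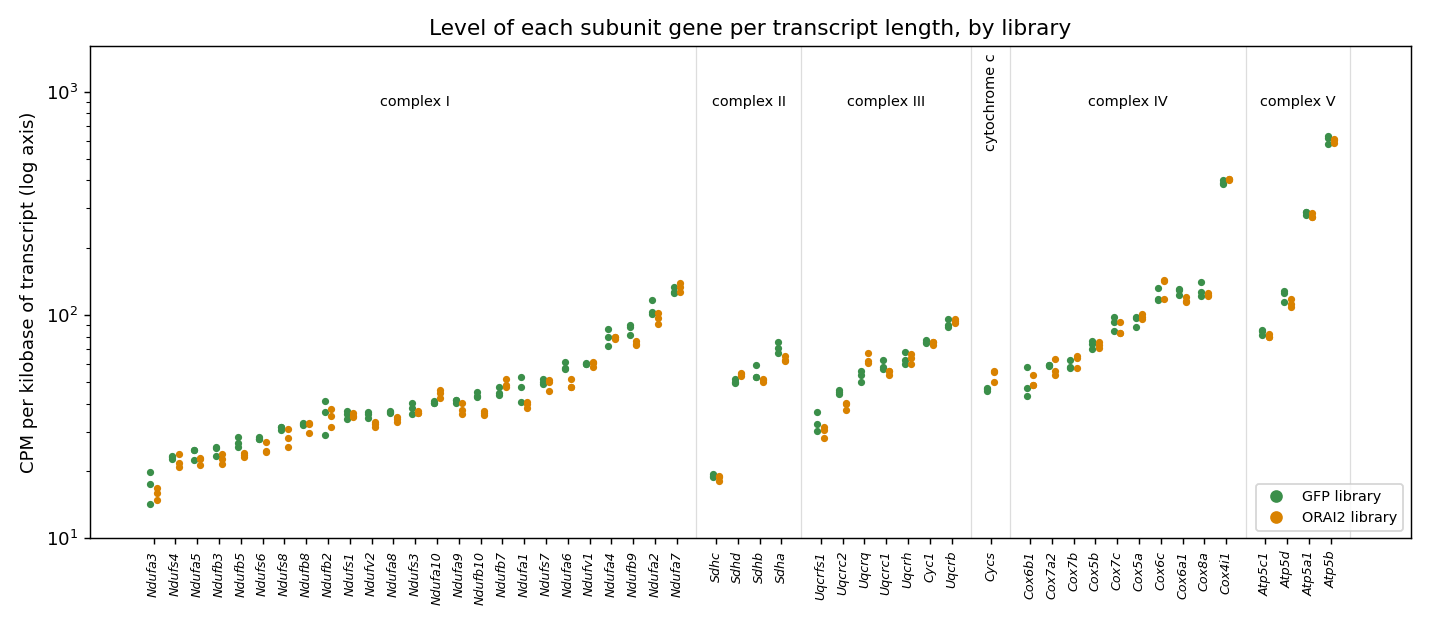
Level of each subunit gene in CPM per kilobase of transcript (vertical log axis), in columns ordered within each complex by the GFP mean. Each point is 1 library, GFP in green and ORAI2 in orange. The order from Ndufa3 to Atp5b spans more than any distance between the green and orange points of a gene.

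Nuclear respiratory genes are known targets of the transcription factors NRF1, GABP (an ETS factor), YY1 and ESRRA. Promoter sequences of the RefSeq assembly GRCm38.p6, 250 bases before to 50 after a start site, were found for 40 of the 51 genes, as 44 windows. The longer NRF1 letters, GCGC, then any base, then TGCGC, searched like the others on both strands, stood in 10 of the 44 windows (22.7%), against 4.60% of 32851 windows in the whole promoter table. The NRF1 core GCATGCGC stood in 6 of 44 (13.6%), against 2.71% of all windows, and 390 windows of the table held both forms. YY1's AAGATGGC was in 13.6% of subunit windows and 2.75% of all windows, the ETS letters CCGGAAGT in 6.82% and 3.89%, and ESRRA's TCAAGGTCA in 2.27% and 0.423%. A match of letters is a description and no evidence of binding.

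The counts of these small groups stand beside 42.9% called over all tested genes, 20.8% higher and 22.1% lower. Whether the letters go with a direction was not tested. Of the 9 genes with the longer NRF1 letters, 0 were higher, 3 were lower (Ndufa6, Sdha and Cox6a1) and 6 did not pass the threshold. Among these 9 values, 8 were negative. Of the 6 with GCATGCGC, Cycs was higher, Ndufa6 and Cox6a1 were lower, and Ndufa8, Sdhb and Uqcrc1 did not pass, with 5 of the 6 values negative. None of the 6 genes with the YY1 letters passed (Ndufa3, Ndufa9, Ndufb8, Ndufs4, Ndufs6 and Ndufs7), and their values were all negative, as were 39 of the 51. The core of the 3 called genes is shown in 30 bases on the minus strand, 5′ to 3′, because the same letters stand before 1 gene that rose and 2 that fell; capitals mark the match, extended in Cox6a1 by the overlapping longer form. The windows are chr15:82354356-82354385 (Ndufa6), chr6:50566611-50566640 (Cycs) and chr5:115349102-115349131 (Cox6a1), all GRCm38.p6, and the first capital lies at -83, -60 and -162 from the start site.
Ndufa6: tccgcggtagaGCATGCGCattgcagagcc
Cycs: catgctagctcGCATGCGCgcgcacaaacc
Cox6a1: acaggaacgggGCGCATGCGCgctctcgct

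Complex I, the NADH dehydrogenase, held 7 of the 12 called genes, 1 higher and 6 lower of 25. Its 24% lower is near the 22.1% of all tested genes, and its 28% called is below their 42.9%. Its median log2 fold change was -0.11 and 22 of its 25 values were negative, a number that fell to 17 of 25 with offsets by transcript length. Of the 6 core subunits, most of which carry the flavin or iron-sulfur clusters, 1 was lower (16.7% called). The 19 accessory subunits gave 1 higher and 5 lower (31.6% called), and both shares are below the 42.9% of all genes. Among 13 matrix-arm subunits 0 were higher and 2 lower (15.4% called), and among 11 membrane-arm subunits 1 was higher and 4 lower (45.5% called, near the 42.9% of all genes). With either of GFP replicates 1 and 2, or of ORAI2 replicates 1 and 3, left out, the number called in complex I was 4 in each case. Ndufa4, named for complex I and now regarded as a complex IV subunit, was counted in neither arm.

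Ndufa6 (Entrez gene 67130), a LYR-motif accessory subunit of the matrix arm, had 36.3, 33.9 and 34.1 CPM under GFP and 28.1, 30.5 and 28.1 under ORAI2. Every ORAI2 library lay below every GFP library, and the log2 fold change was -0.27 (SE 0.06, edgeR adjusted p = 0.00253). Ndufb10 (68342), a membrane-arm subunit on the intermembrane-space side, had 33.0, 31.7 and 31.3 CPM under GFP and 26.6, 26.2 and 27.3 under ORAI2. The groups were again apart, and the log2 fold change was -0.26 (SE 0.05, adjusted p = 0.00207). Ndufb9 (66218), a second LYR-motif subunit, in the membrane arm, had 63.4, 62.2 and 57.1 CPM under GFP and 51.9, 53.8 and 52.1 under ORAI2, a log2 fold change of -0.21 (SE 0.05, adjusted p = 0.00406). GFP replicate 3 was the GFP library nearest to the ORAI2 values. Of the 50-base stretches of the Ndufb9 transcript, 23.4% also occur in the overlapping gene model Gm49356 on the same strand, so reads could be split between them.

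Ndufv2 (72900), a core iron-sulfur subunit of the NADH-oxidising module, had 62.5, 61.1 and 58.3 CPM under GFP and 55.0, 56.0 and 53.7 under ORAI2. The groups did not overlap, and the log2 fold change was -0.14 (SE 0.05, adjusted p = 0.0211). Its call was lost without GFP replicate 1 or 2 (adjusted p = 0.0816 and 0.0651) or ORAI2 replicate 1 or 3 (0.0570 and 0.0803). The other core subunits, Ndufs1, Ndufs3, Ndufs7, Ndufs8 and Ndufv1, did not pass, with log2 values from -0.14 to -0.00. Ndufv1, which binds NADH and the flavin and partners with Ndufv2, had 100, 99.6 and 101 CPM under GFP and 102, 101 and 96.8 under ORAI2.

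Beyond the rule that set which genes are described singly, 2 more complex I genes were lower and are named because their values had been seen. Ndufb5 (66046), a membrane-arm subunit, had 30.5, 28.8 and 27.6 CPM under GFP and 25.0, 25.9 and 25.5 under ORAI2, with no overlap and a log2 fold change of -0.18 (SE 0.06, adjusted p = 0.0255). Its call was lost without GFP replicate 1 or 2 (0.0897 and 0.0654) or ORAI2 replicate 1 or 3 (0.0729 and 0.0619), and 616 exonic bases overlap Mrpl47 on the other strand. Ndufa1 (54405), a small membrane-arm subunit, had 20.02, 22.0 and 17.0 CPM under GFP and 16.0, 16.7 and 17.1 under ORAI2, a log2 fold change of -0.25 (SE 0.09, adjusted p = 0.0479). GFP replicate 3 lay inside the ORAI2 range, and the call was lost without any 1 library except GFP replicate 3, at adjusted p-values of 0.106 and 0.217 without GFP replicates 1 and 2 and of 0.135, 0.104 and 0.0703 without ORAI2 replicates 1, 2 and 3.

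Ndufa10 (67273) was the one gene of the 25 that rose. This accessory subunit, of the nucleoside kinase family, had 83.4, 81.5 and 81.4 CPM under GFP and 89.9, 85.7 and 93.2 under ORAI2. Every ORAI2 library was above every GFP library, and the log2 fold change was 0.13 (SE 0.04, adjusted p = 0.0273). The call was lost without GFP replicate 2 or 3 (adjusted p = 0.0875 and 0.0601) or ORAI2 replicate 1 or 3 (0.0600 and 0.0915). The 18 complex I genes that did not pass ranged from Ndufa2 at -0.15 to Ndufb7 at 0.12 on the log2 scale, and the intervals of Ndufa3 (-0.38 to 0.15) and Ndufb2 (-0.28 to 0.22) were the widest among them. Ndufa2 passed as lower without GFP replicate 2 (0.0472) or ORAI2 replicate 2 (0.0444), Ndufa9 without ORAI2 replicate 1 (0.0276) and Ndufs8 without ORAI2 replicate 3 (0.0373).

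Complex II, succinate dehydrogenase, links the tricarboxylic acid cycle to the chain. Sdha (66945), its flavoprotein and catalytic subunit, had 219, 205 and 196 CPM under GFP and 189, 181 and 183 under ORAI2. All 3 ORAI2 libraries were below the lowest GFP library, and the log2 fold change was -0.17 (SE 0.04, adjusted p = 0.0069). Sdhb, the iron-sulfur subunit, had 68.4, 60.3 and 60.0 CPM under GFP and 57.0, 58.2 and 58.8 under ORAI2, also without overlap, but did not pass (log2 fold change -0.12, SE 0.05, adjusted p = 0.102). Both membrane anchors fell short of the threshold too. Sdhc had 60.0, 59.5 and 61.7 CPM under GFP and 57.2, 59.6 and 60.1 under ORAI2 (log2 fold change -0.03, interval -0.13 to 0.06). Sdhd had 63.7, 61.4 and 61.2 CPM under GFP and 66.6, 68.0 and 65.6 under ORAI2, with the ORAI2 libraries above (log2 fold change 0.10, adjusted p = 0.0605). The Sdha promoter is shown because it carries the longer NRF1 letters 3 times, each as its reverse complement: the 250 bases before the start site, chr13:74350241-74350490 of GRCm38.p6, minus strand, have matches in capitals beginning at -98, -55 and -10.
Sdha: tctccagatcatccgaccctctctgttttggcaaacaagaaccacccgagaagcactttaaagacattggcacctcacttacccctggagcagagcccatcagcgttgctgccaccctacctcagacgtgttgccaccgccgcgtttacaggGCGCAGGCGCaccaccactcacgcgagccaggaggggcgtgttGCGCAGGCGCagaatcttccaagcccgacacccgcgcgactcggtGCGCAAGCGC

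Complex III, which passes electrons from ubiquinol to cytochrome c, had 1 subunit gene higher and 1 lower of 7. That is 28.6% called, against 42.9% of all tested genes, and 4 were called without GFP replicate 3. Uqcrq (22272), the small ubiquinone-binding subunit, had 81.6, 85.4 and 76.1 CPM under GFP and 92.6, 103 and 94.5 under ORAI2. The groups were apart, and with a log2 fold change of 0.25 (SE 0.05, adjusted p = 0.00171) Uqcrq had the largest rise of the 51. Uqcrc2 (67003), a core protein on the matrix side, had 87.6, 86.0 and 83.5 CPM under GFP and 76.6, 75.7 and 71.4 under ORAI2, a log2 fold change of -0.20 (SE 0.04, adjusted p = 0.00205). The groups were apart here as well; 504 exonic bases of Uqcrc2 overlap Pdzd9 on the other strand, and the sources used here do not say whether counting used strand. Its partner core protein Uqcrc1 had 104, 96.8 and 94.7 CPM under GFP and 92.5, 93.0 and 88.9 under ORAI2 and did not pass (log2 fold change -0.11, adjusted p = 0.0663), though it did without GFP replicate 3 (0.0333). The redox subunits did not pass either: Cyc1, cytochrome c1, had a log2 fold change of -0.02 (interval -0.10 to 0.06), and Uqcrfs1, the Rieske iron-sulfur protein, had -0.15 (interval -0.30 to 0.01), past the threshold only without GFP replicate 3 (adjusted p = 0.0262) among the libraries left out.

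Cytochrome c, the mobile carrier between complexes III and IV and a trigger of apoptosis once released, rose. Cycs (13063) had 143, 145 and 148 CPM under GFP and 157, 175 and 173 under ORAI2. The lowest ORAI2 library, replicate 1, was still above the highest GFP library, and the log2 fold change was 0.21 (SE 0.04, interval 0.12 to 0.31, adjusted p = 0.00173). Of its 50-base stretches 28.2% also occur in other genes, among them the copies Cycs-ps2 and Cycs-ps3, so its count is uncertain to that degree. The testis isoform Cyct had at most 1 count in any library.

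Complex IV, cytochrome c oxidase, had a median log2 fold change of 0.01, with 5 of 10 values negative and 10% called, against 42.9% of all tested genes. Cox6a1 (12861), the widely expressed form of subunit VIa, was the 1 gene called, with 74.6, 73.5 and 69.8 CPM under GFP and 66.0, 68.3 and 65.4 under ORAI2. The groups did not overlap, and the log2 fold change was -0.13 (SE 0.04, adjusted p = 0.0310). The call was lost without GFP replicate 1 or 2 (0.109 and 0.0961) or ORAI2 replicate 1 or 3 (0.0975 and 0.104). Cox4i1, the first nuclear subunit in assembly and the regulatory ATP-binding one, had 307, 296 and 297 CPM under GFP and 310, 306 and 310 under ORAI2, a log2 fold change of 0.04 (interval -0.03 to 0.11). Cox6c spread most among the ORAI2 libraries, with 66.3, 59.2 and 58.7 CPM under GFP and 59.4, 71.9 and 71.0 under ORAI2. Its groups overlapped through ORAI2 replicate 1 and it did not pass (log2 fold change 0.13, adjusted p = 0.149), though it did without that library (0.0116). Shared 50-base stretches were most frequent in Cox7c, at 53.0%, so its log2 value of -0.09 is uncertain.

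Complex V, the ATP synthase, gave 0 of 4 calls by edgeR, as by DESeq2 and limma-voom, with Atp5d alone at an unadjusted p under 0.05. Atp5a1 and Atp5b, the alpha and catalytic beta subunits of the F1 head, had log2 fold changes of -0.04 (interval -0.12 to 0.03) and -0.02 (interval -0.11 to 0.06). Atp5c1, the gamma subunit of the rotor, had 148, 147 and 141 CPM under GFP and 138, 138 and 142 under ORAI2 (log2 fold change -0.06, interval -0.14 to 0.02). Atp5d, the delta subunit of the central stalk, had 119, 117 and 106 CPM under GFP and 104, 110 and 101 under ORAI2. It was at an adjusted p of 0.0681 (log2 fold change -0.12, interval -0.22 to -0.01), and passed without GFP replicate 3 (0.00914) or ORAI2 replicate 2 (0.0439).

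**Figure D3:**
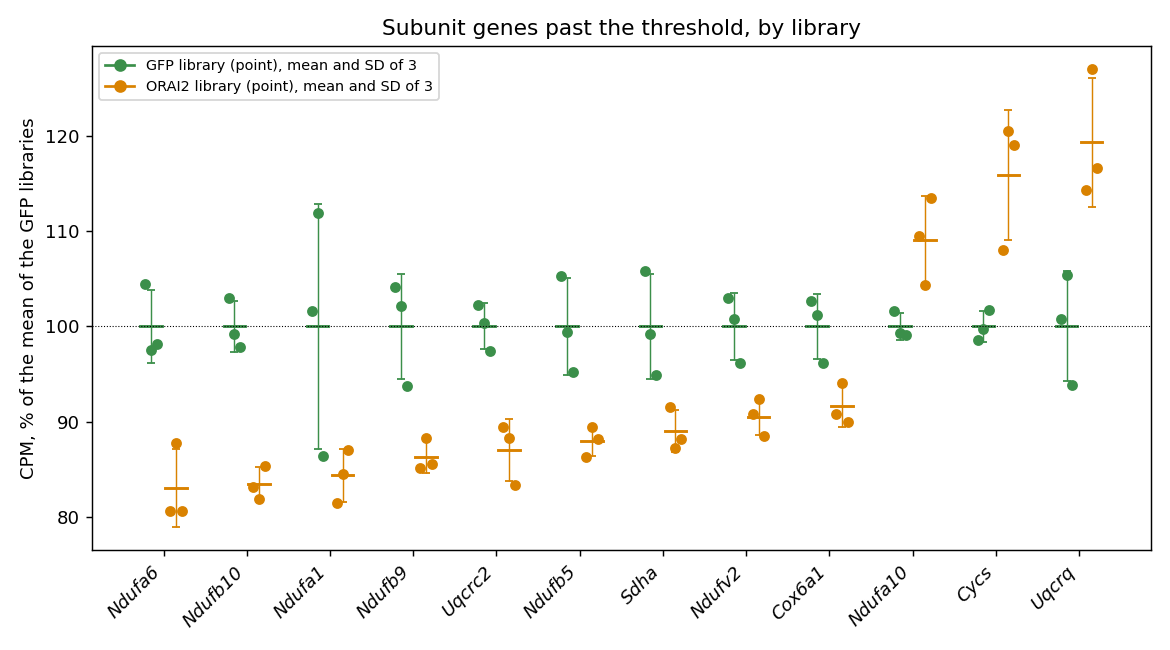
Level of the 12 called subunit genes in each library, as a percentage of the mean of the GFP libraries (vertical axis, not starting at 0), ordered by fold change. Points are libraries, horizontal bars are means and vertical lines the SD of 3. The groups overlap in Ndufa1 alone, and every mean lies between 83.0% and 119% of the GFP mean.

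Summed over each complex, the levels moved by a few percent. All 51 genes together had 5249, 5106 and 4951 CPM under GFP and 4986, 5072 and 4939 under ORAI2, a ratio of 0.980, with overlapping groups. Complex I had 1138, 1110 and 1082 CPM under GFP and 1064, 1070 and 1051 under ORAI2, a ratio of 0.956 with no overlap. Complex II had 411, 386 and 379 CPM under GFP and 370, 366 and 367 under ORAI2, a ratio of 0.938, also with no overlap. That sum follows mainly Sdha, whose mean went from 207 CPM under GFP to 184 under ORAI2. Sdhd went the other way, from 62.1 to 66.7. Complexes III, IV and V had ratios of 0.986, 1.01 and 0.976, and their groups overlapped. GFP replicate 1 was the highest library in the total and stood 0.08 above the average of the 6 libraries in the median log2 level of a subunit gene. It was the highest GFP library in the sums of complexes I, II, III, IV and V.

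**Figure D4:**
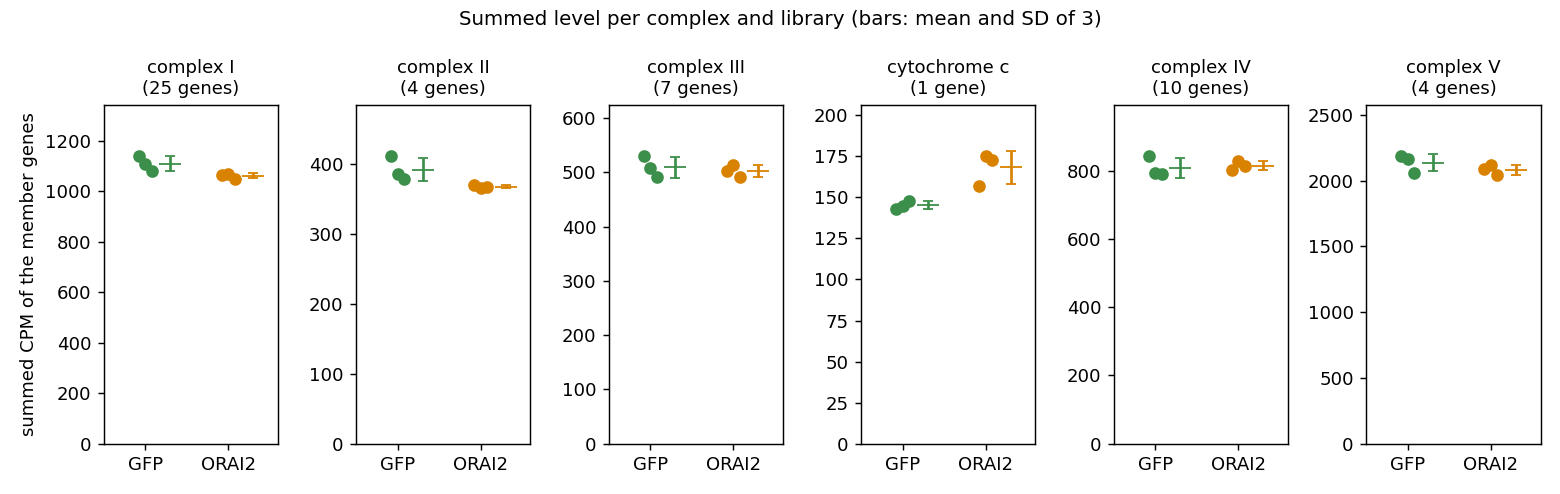
Summed CPM of the subunit genes of each complex (vertical axes from 0) in the 3 GFP and 3 ORAI2 libraries, with the mean and SD of each group beside the points. The sums of complexes I and II are lower in every ORAI2 library by a few percent, that of complex II mainly through Sdha. Cytochrome c is higher, and complexes III, IV and V overlap.

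Subunit transcripts are short, with a median of 875 bases against 3068 over all tested genes with a known length. The fold change of all genes varied with length in these libraries. In the shortest of 10 equal bins of genes the median log2 fold change was -0.05, with 12.7% higher and 23.1% lower, and this bin held 33 of the 51 subunit genes, whose median was -0.08. In the next bin, which held 9, the medians were -0.03 for all genes and -0.06 for the subunit genes. With offsets fitted within bins of length, the median of the 51 was -0.03, 30 of 51 values were negative in place of 39, and 7 genes were higher and 5 lower. Under those offsets Cox6a1, Ndufa1, Ndufb5 and Ndufv2 lost their calls, while Cox4i1, Cox6c, Ndufb7 and Sdhd were called higher. The part of transcript length in the lower calls was not tested further.

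**Figure D5:**
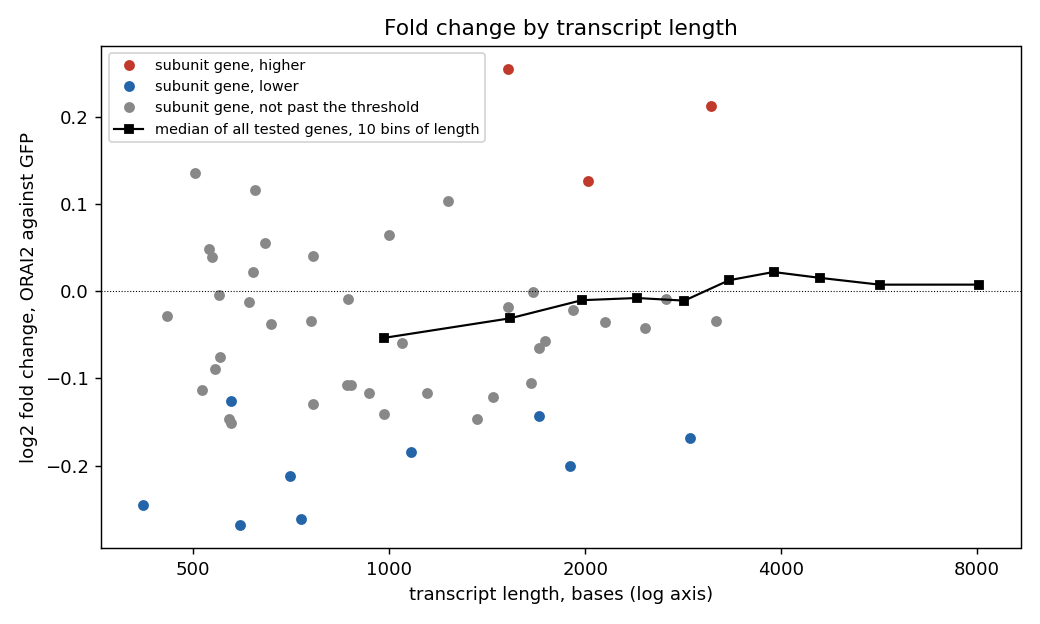
Log2 fold change (ORAI2 against GFP) of the 51 subunit genes by transcript length (log axis), with called genes coloured. The black line joins the medians of all tested genes in 10 bins of length, which run from -0.05 in the shortest bin to 0.02 in the seventh bin.

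Of the called subunit genes, 7 kept their call in every one of the 17 count-based alternatives: Ndufa6, Ndufb9, Ndufb10, Sdha and Uqcrc2 as lower, and Uqcrq and Cycs as higher. Over those alternatives Ndufa6 ranged from -0.31 to -0.22, Sdha from -0.21 to -0.13, Uqcrc2 from -0.22 to -0.16, Uqcrq from 0.21 to 0.29 and Cycs from 0.16 to 0.27 on the log2 scale.

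Of 13 other complex I subunits that are not among the 51, 1 was higher and 5 were lower. These are 7.69% and 38.5%, against 20.8% and 22.1% of all tested genes. Their called share in either direction was 46.2%, near the 42.9% of all tested genes. Ndufv3 was lower, at -0.43 (edgeR adjusted p = 0.000663). The higher one, Ndufa12, was at 0.13 (adjusted p = 0.0267), a call lost without GFP replicate 2 (0.0887), GFP replicate 3 (0.0642) or ORAI2 replicate 2 (0.0900). The number lower was 3 without GFP replicate 1, GFP replicate 2 or ORAI2 replicate 1. Of 16 other subunits of complexes III, IV and V, 0 were higher and 3 lower, a smaller share than the 22.1% of all genes, led by Atp5g2, a c-ring subunit, at -0.33 (adjusted p = 0.000332). Atpif1, the inhibitor of ATP hydrolysis by complex V, was at -0.22 (adjusted p = 0.0233), lost without GFP replicate 1 (0.0989) or ORAI2 replicate 1 (0.108). In that list the number lower was 5 without GFP replicate 3 and 1 without ORAI2 replicate 1, and the number higher was 1 without GFP replicate 1 or ORAI2 replicate 3. Of 6 tissue-specific or inducible isoforms, Ndufa4l2, Cox4i2, Cox7a1, Cox7b2 and Cyct fell below the count filter, none reaching more than 11 counts, and Cox6a2 did not pass.

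Assembly factors were called in both directions. In each of the 2 lists the shares higher and lower were below the 20.8% and 22.1% of all tested genes. Of 15 for complex I, 2 were higher and 1 lower: Ndufaf4 at 0.48 (adjusted p = 1.51e-05), Tmem186 at 0.52 (adjusted p = 0.000232) and Nubpl, which delivers iron-sulfur clusters, at -0.26 (adjusted p = 0.0121). Nubpl lost its call without GFP replicate 2 (0.0726) or ORAI2 replicate 3 (0.0570), and 2 factors were lower without ORAI2 replicate 2. Of 32 tested for complexes II to V, 5 were higher and 6 lower, with 3 higher without GFP replicate 2 or ORAI2 replicate 3 and 3 lower without GFP replicate 1. They included the complex III factors Uqcc1 at 0.23 and Uqcc3 at -0.61 (adjusted p = 0.00383 and 0.00241) and the complex IV factors Cox10 at 0.24 and Surf1 at -0.28 (adjusted p = 0.00408 and 0.00403).

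Genes that act on mitochondrial DNA and its transcripts gave 4 higher and 1 lower of 16 (25% and 6.25%, against 20.8% and 22.1% of all tested genes). Lrpprc, which stabilises mitochondrial mRNA, was at 0.28 (adjusted p = 0.000105), and its partner Slirp was at -0.29 (adjusted p = 0.0169), a call lost without GFP replicate 2 (0.0829) or ORAI2 replicate 1 (0.0527), while 2 genes were lower without GFP replicate 3. Tfb2m, a mitochondrial transcription factor, was at 0.36 (adjusted p = 0.000454). Of 28 mitochondrial ribosomal proteins, 5 were higher and 3 lower (17.9% and 10.7%, below the shares of all tested genes). Mrpl19 was at 0.33, Mrps2 at 0.28, Mrps6 at -0.35 and Mrpl13 at -0.18.

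Of 12 nuclear regulators of mitochondrial genes, 4 were higher and 3 lower (33.3% and 25%, against 20.8% and 22.1% of all tested genes). Myc had 182, 189 and 187 CPM under GFP and 293, 301 and 280 under ORAI2, a log2 fold change of 0.64 (adjusted p = 6.94e-08). Gabpa, the DNA-binding subunit of GABP, was at 0.23 (adjusted p = 0.000153), and Hif1a, the oxygen-regulated factor, at -0.46 (adjusted p = 1.62e-05). Ppargc1a, the coactivator PGC-1alpha, was sparse, with 2.79, 2.73 and 2.57 CPM under GFP and 1.89, 1.76 and 1.68 under ORAI2. Its log2 fold change was -0.60 (adjusted p = 0.0165), and the call was lost without ORAI2 replicate 3 (0.0557), which left 1 regulator lower. Nrf1 itself did not pass, at 0.08 (adjusted p = 0.143). Of the other factors whose promoter letters were searched, Esrra was lower at -0.21 and Yy1 higher at 0.10 (edgeR adjusted p = 0.0330 and 0.0408). The 1 regulator still lower without ORAI2 replicate 3 was Hif1a, so the Esrra call was lost there. Gabpb1 and Gabpb2, the partners of Gabpa in GABP, did not pass.

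Of 14 genes listed for pyruvate entry and its control, 0 were higher and 8 lower (57.1%, against 22.1% of all tested genes), with a median log2 fold change of -0.30. The lower ones were mostly regulators of pyruvate dehydrogenase and lactate dehydrogenase genes: the kinases Pdk1, Pdk2, Pdk3 and Pdk4, which switch the enzyme off, the phosphatase Pdp1, Ldha and Ldhb, and the 1 enzyme subunit Pdha1 at -0.18. The pyruvate carrier genes Mpc1 and Mpc2 and the enzyme subunits Pdhb, Dlat and Pdhx did not pass, with log2 values from -0.09 to 0.11. Pdk3 had 113, 111 and 117 CPM under GFP and 72.6, 79.8 and 78.8 under ORAI2 (log2 fold change -0.56, adjusted p = 8.83e-07). Ldhb, a lactate dehydrogenase subunit, fell from 11.2 ± 0.53 to 5.74 ± 0.39 CPM (SD, n = 3), a log2 fold change of -0.96 (adjusted p = 7.72e-06). Of 14 tricarboxylic acid cycle genes, 2 were higher and 3 lower (14.3% and 21.4%, against 20.8% and 22.1% of all tested genes). Idh2 was at -0.37, Ogdh at -0.22 and Dld at 0.19. Idh3a, at 0.15 (adjusted p = 0.0274), lost its call without GFP replicate 2 (0.0842), GFP replicate 3 (0.0936) or ORAI2 replicate 2 (0.0724). A list of 14 genes joined other donors of electrons to ubiquinone with genes of ubiquinone synthesis (the Coq genes and Adck3). Of the 14, 0 were higher and 4 lower (28.6%, against 22.1% of all tested genes). The lower ones were the donor genes Sqor at -0.39, Etfdh at -0.22 and Etfa at -0.11, and the synthesis gene Coq9 at -0.13. The number lower was 2 without GFP replicate 1, GFP replicate 2 or ORAI2 replicate 1, and 1 was higher without ORAI2 replicate 3. Of 13 tested carriers and channels, 2 were higher and 5 lower (15.4% and 38.5%, against 20.8% and 22.1% of all tested genes). The higher ones were Slc25a5, an ADP/ATP carrier, at 0.28 and Slc25a13 at 0.18. Slc25a1, the citrate carrier, was at -0.43 and Slc25a12 at -0.47. A second ADP/ATP carrier, Slc25a4, was also lower, at -0.19 by edgeR (adjusted p = 0.00242).

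Of 24 genes listed for mitochondrial protein import, chaperones, proteases and membrane shaping, 14 were higher (58.3%, against 20.8% of all tested genes). In the same list 0 were lower (against 22.1%), and the median log2 fold change was 0.13. The 14 included Opa1 at 0.23 and Dnm1l at 0.11, genes of membrane fusion and fission. Mfn1, Mfn2 and Immt, which are not import genes either, and the proteases Lonp1 and Clpp did not pass. Without single libraries the number higher was 11 to 13. Timm8a1, an intermembrane-space import chaperone, had 130, 123 and 110 CPM under GFP and 160, 160 and 159 under ORAI2 (log2 fold change 0.40, adjusted p = 4.71e-05). Hspe1, the chaperonin HSP10, had 147, 145 and 156 CPM under GFP and 180, 183 and 182 under ORAI2 (log2 fold change 0.29, adjusted p = 5.84e-05). Over the 212 tested genes of these 13 mitochondrial lists, 39 were higher (18.4%) and 42 lower (19.8%), both near the shares of all tested genes.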

How the data were processed

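Poly(A) RNA of 6 MEF libraries was sequenced, 3 per group. The authors deposited a table with a read count and a TPM column per library, per the file headers; HISAT2 2.0.4, Salmon 1.4.0 and GRCm39 are named in the submitters' processing notes, without their roles. No source used here says whether counting used strand. Gene IDs were matched to RefSeq symbols for 25631 of 26532 rows (96.6%). Transcript lengths and shared stretches of 50 bases came from GENCODE M21 (GRCm38), and promoters from RefSeq GRCm38.p6; neither is the build of the counts.

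Counts were fitted with edgeR 4.0.16 (R 4.3.3): TMM scaling, filterByExpr with a minimum of 10 counts, quasi-likelihood test, Benjamini-Hochberg adjustment over 13764 genes, threshold 0.05. CPM is the count scaled by the TMM-adjusted library size. Alternatives used DESeq2 1.42.0, limma 3.58.1 (voom, and log2 of TPM plus a pseudocount of 0.1), other scalings and filters, offsets in 10 bins of length or GC, a replicate block and leaving out each library. The code was tested on simulated counts, where the smallest changes were often missed and some larger ones were missed too. False calls there came to more than the nominal share.

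TPM was not used for results: the deposited TPM column GFP-1 ranked genes most like the count column of GFP replicate 2 (Spearman 0.957, against 0.911 for replicate 1), GFP-2 like replicate 3 (0.958), and ORAI2-1 and ORAI2-2 like ORAI2 replicates 2 and 3 (0.959 and 0.958), while the columns numbered 3 matched no count column above 0.904.

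Genes described singly were, per complex, up to 4 called per direction with the smallest p (all members of complexes of 5 or fewer), and per other list up to 2 per direction. Some further genes were named beyond it, with their values known. A gene that this rule named is not reported here. The members, the lists and this rule were chosen with earlier results of these data known. Library pairs within a group differed by more than counting noise (chi-square of 2.54 to 4.50 per gene), so none was counted as a duplicate.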

Additional observations from a re-analysis of the deposited data

Results flagged for a closer look

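The deposited TPM columns, which enter none of the results above, gave Orai2 at 1429.5 in the column named ORAI2-1 and 1241.34 in ORAI2-2, above 24.83, 24.86 and 38.19 in the columns named GFP. The column named ORAI2-3 held 36.33, inside the GFP range, although the count column of that library had 45140 Orai2 counts. Among the 51 subunit genes, 0 had all TPM columns named ORAI2 above all those named GFP and 5 had all of them below. In the counts the groups did not overlap for 17 of the 51 (33.3%), against 52.8% of all tested genes. That share over all genes was not taken in TPM. Because the column named ORAI2-3 held Orai2 inside the GFP range, the TPM numbers are no comparison of ORAI2 with GFP. Ndufa3, the lowest of the 51 in CPM per kilobase, was at 136 to 344 in the TPM columns, above Ndufb2 at 40.2 to 52.7.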

How the results depend on the processing

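Of the 51 subunit genes, 12 were called (3 higher, 9 lower). DESeq2 called 7 (5 lower; 3 in complex I, 0 in complex IV). Offsets by length gave 7 higher and 5 lower, with 2 called in complex II and 2 in complex IV; GC offsets gave 5 higher. Library size alone gave 2 in complex II, no count filter 0 in complex IV, and upper-quartile scaling 1 in complex V. Without single libraries the number called ran from 8 to 14 (2 to 3 higher, 5 to 12 lower): 4 to 7 in complex I, 2 to 4 in complex III, 0 to 1 in complex IV and 0 to 1 in complex V. The lowest numbers of lower genes came without GFP replicate 1. The replicate block called 16 (3 higher, 13 lower), with 4 in complex III and 1 in complex V; deviations of same-numbered libraries correlated at 0.136, 0.0735 and 0.126, and each library correlated most with its own number, a hint of pairing from the data. The numbers were not taken as pairs because 1 of the 3 is not over 0.1 and the labels give the numbers no meaning. limma on the TPM columns called 4 genes in all (2 higher, 2 lower) and 0 of the 51, none in any complex (complex I 0, II 0, III 0, cytochrome c 0, IV 0, V 0), 0 higher and 0 lower genes of the other mitochondrial lists, and Nubpl at 0.024. On the TPM columns numbered 1 and 2 alone, chosen after seeing the data, it called 3214 genes (1246 higher, 1968 lower), 10 of the 51 and 23 higher genes of the other lists. Counts within the single mitochondrial lists, many of them of 5 or fewer genes, moved by over 1.5 times in 73 of 494 cases: 33 on TPM columns, 27 without a library and 13 under other settings. Ndufa3, the subunit gene with the fewest counts (137 to 190 per library), had the widest interval of the 51.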
